A study of Caenorhabditis elegans with 2 samples.

Results

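The genes described here are 10 genes of the serotonin and octopamine pathway that drives fat loss in the intestine of Caenorhabditis elegans: tph-1, tdc-1, tbh-1, mod-1, ser-5, ser-6, octr-1, nhr-76, atgl-1 and hosl-1. They were listed by name for their place in that pathway, not by their signal, but with earlier results of these data known. They make up 10 of the 19973 protein-coding genes on the 6 nuclear chromosomes. At each gene, every deposited region that overlapped the gene body or the 2 kb upstream of it by at least 1 bp was taken. The regions come from a ChIP-seq experiment on the nuclear receptor NHR-76 in whole, mixed-sex L1 larvae, the first larval stage. There is 1 group of 2 libraries, biological replicates 1 and 2, so no treated and untreated animals could be compared. Both libraries were made from strain OP203, genotype unc-119(ed3) III; wgIs203, a transgenic line in which NHR-76 is fused at its C-terminus to GFP and FLAG. The labels name nhr-76 as the antibody target. They give neither the promoter of the transgene nor how much of the nhr-76 locus it carries. No library from worms without the tagged receptor was analysed here. Whole larvae were used, so a site occupied in few cells and a site weakly occupied in many cannot be told apart.

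Serotonin and octopamine, the invertebrate relative of noradrenaline, are made in a few neurons of the worm and together lower the fat stored in the intestine. Neuronal receptors for both transmitters pass the signal on, and in the intestine the nuclear receptor NHR-76 is needed for the rise in transcription of atgl-1, which encodes the adipose triglyceride lipase. The question these genes put to the data is whether signal for the tagged receptor lay at atgl-1, at its own gene or at the neuronal genes of the pathway.

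Each region list held 30000 regions of 1 width, 344 bp in replicate 1, 310 bp in replicate 2 and 324 bp in the list called on the pooled reads. Of these, 794 in replicate 1, 2004 in replicate 2 and 695 in the pooled list had q at or below 0.05, so being listed is a low bar. A separate thresholded list held 248 peaks, which were the 248 strongest pooled regions. Signals are the authors' values from the peak caller, on scales that differ between lists (medians of 6.50 in replicate 1, 6.07 in replicate 2 and 10.3 in the pooled list). They are therefore also given as multiples of the median region of the same list. Rank 1 is the strongest region of a list, and q is the deposited false discovery value of a region. The number of reads behind a region is unknown.

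None of the 10 genes had a peak of the thresholded list, and their highest pooled signal reached 60.8% of the weakest peak. The strongest regions lay at nhr-76, atgl-1 and hosl-1, the receptor and the 2 lipases, in the pooled list and in replicate 1, with the neuronal genes lower. In replicate 2 the neuronal gene tbh-1 was the highest, with atgl-1 next, then mod-1 and nhr-76, both at 1.63 times the median. In that library hosl-1, at 1.00 times, was lower than tdc-1 (1.08) and ser-5 (1.17). At least 1 pooled region was listed at 9 of the 10 genes, against 76.8% of all protein-coding genes. In replicate 1 it was 10 of 10 (all genes 76.4%) and in replicate 2 8 of 10 (all genes 76.7%). A peak was present at 0 of 10 genes, against 1.71% of all genes, and a count of 0 is near that background. No gene had a pooled region with q at or below 0.05 (0 of 10, all genes 4.37%). In replicate 1 such a region was found at 3 of 10 genes, namely nhr-76, atgl-1 and hosl-1 (all genes 4.85%). In replicate 2 it was found at 0 of 10 (all genes 10.9%). Both libraries had such a region at 0 of 10 (all genes 2.48%), a count near that background. The windows of the 10 genes were long, with a median of 6.00 kb against 4.03 kb for all genes. The longest of the 10 were those of hosl-1 (8.575 kb) and nhr-76 (8.427 kb). The part of window length in the order of the genes was not tested.

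**Figure D1:**
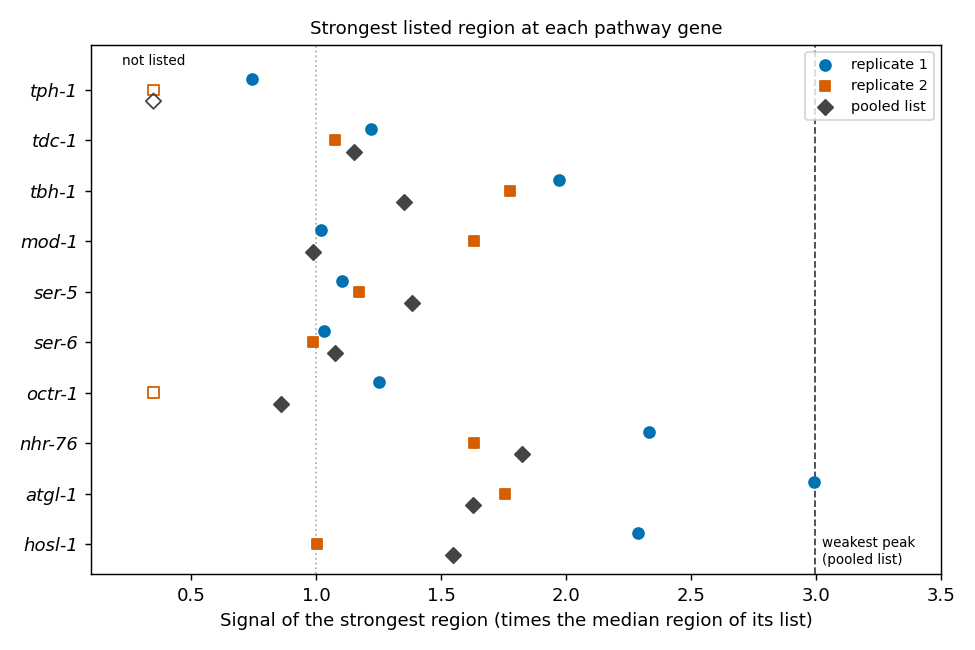
Signal of the strongest listed region at each gene, as a multiple of the median region of the same list, for replicate 1 (circles), replicate 2 (squares) and the pooled list (diamonds). Open symbols are genes with no region in that list, the dotted line is the median region, and the dashed line is the weakest of the 248 peaks, which applies to the diamonds only. All 9 diamonds lie left of that line, and atgl-1, nhr-76 and hosl-1 are the highest circles.

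The following sequences surround the summit of the strongest pooled region at 5 genes and were read from the plus strand of the RefSeq copy of WBcel235, the assembly that UCSC calls ce11. They are shown for nhr-76 as the strongest pooled region of the 10 genes, for tdc-1 as one found in both libraries, and for hosl-1, tbh-1 and octr-1 as windows that hold a motif searched for. Capitals mark a match on either strand to 1 of 4 motifs. The nuclear receptor core hexamer AGGTCA and its variant with the letters AGTTCA were searched, as were the GATA factor site TGATAA of intestinal genes and the GC box GGGCGG.
nhr-76, chrIV:631927-632077: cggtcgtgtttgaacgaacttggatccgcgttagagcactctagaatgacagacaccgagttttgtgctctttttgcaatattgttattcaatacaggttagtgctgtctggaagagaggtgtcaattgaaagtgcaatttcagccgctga
hosl-1, chrX:4635811-4635961: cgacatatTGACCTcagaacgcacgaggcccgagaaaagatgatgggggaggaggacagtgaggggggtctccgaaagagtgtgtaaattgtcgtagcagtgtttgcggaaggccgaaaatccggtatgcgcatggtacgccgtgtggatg
tbh-1, chrX:15501576-15501726: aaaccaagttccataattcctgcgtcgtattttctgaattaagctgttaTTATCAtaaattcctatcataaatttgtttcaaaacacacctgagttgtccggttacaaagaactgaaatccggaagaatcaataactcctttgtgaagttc
octr-1, chrX:5611524-5611674: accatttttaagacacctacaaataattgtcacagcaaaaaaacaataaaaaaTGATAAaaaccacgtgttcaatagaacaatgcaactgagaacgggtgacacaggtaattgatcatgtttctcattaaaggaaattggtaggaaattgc
tdc-1, chrII:8272798-8272948: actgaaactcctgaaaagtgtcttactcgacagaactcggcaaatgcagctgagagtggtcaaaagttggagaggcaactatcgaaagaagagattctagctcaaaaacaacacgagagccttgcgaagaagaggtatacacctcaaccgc
Over the 9 windows of the listed genes, AGGTCA, which reads TGACCT on the other strand, was in 1, that of hosl-1, against 4.28% of all 30000 pooled windows of the same length. TGATAA, which reads TTATCA on the other strand, was in 2, those of tbh-1 and octr-1, against 13.7% of all windows. AGTTCA was in 0 of 9 (all windows 9.96%), and GGGCGG in 0 of 9 (all windows 3.13%). The matches each lay in the window of a different gene. They describe these letters only, with no test.

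Of the lipases, atgl-1 (WBGene00015484, chrIII:6415772-6419459, minus strand) had the strongest region of the 10 genes in any list, as a multiple of the median. It lay at chrIII:6420980-6421323 in replicate 1, with a signal of 19.5, 2.99 times the median, rank 161 and q = 0.00300. Among all protein-coding genes, 1.08% had a region at least as strong in that library. In replicate 2 the strongest region at the gene was chrIII:6421105-6421414, with a signal of 10.7, 1.75 times the median, rank 2101 and q = 0.0550, a level that 11.3% of all genes reached. These regions shared 219 bp and their summits were 108 bp apart, so both libraries placed their highest signal for atgl-1 at the same site. The libraries averaged 2.37 ± 0.875 times the median (SD, n = 2). Both were above the median, and replicate 1 was the higher. The pooled region at the site, chrIII:6420990-6421313, was lower in multiples of the median than either library, at 1.63 times, with a signal of 16.7, rank 2343 and q = 0.258.

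The pooled summit of that site was 1693 bp upstream of the 5' end of atgl-1, which was the nearest 5' end of a protein-coding gene. By the annotation it lay in the 3' UTR of the neighbouring gene C05D11.8, on the same strand. The pooled region had 50.3% GC, against a median of 37.4% over all pooled regions; the part of GC in the signal was not tested. Nearer to the gene, a pooled region 930 bp upstream (chrIII:6420227-6420550) reached 1.29 times the median and was overlapped in neither library. Replicate 2 had a weak region 211 bp upstream, at 0.932 times the median. Replicate 1 had one at 0.771 times the median in a coding exon. The nearest peak to atgl-1 was 737 kb away.

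The other lipase gene, hosl-1 (WBGene00016704, chrX:4637121-4643695, plus strand), encodes the worm relative of hormone-sensitive lipase, and its higher values were in replicate 1. That library had an intronic region 3939 bp downstream of the 5' end (chrX:4640888-4641231), with a signal of 14.9, 2.29 times the median, rank 482 and q = 0.0260. It had a second region 1361 bp upstream (chrX:4635588-4635931), with a signal of 14.2, 2.17 times the median, rank 608 and q = 0.0453. Replicate 2 listed 5 regions at the gene, and none of them overlapped any of the 4 regions of replicate 1. Its strongest was 261 bp upstream, with a signal of 6.09, 1.00 times the median, rank 14870 and q = 0.474. The libraries thus differed both in level and in place, and the mean over them was 1.64 ± 0.907 times the median (SD, n = 2). In the pooled list the upstream region led (chrX:4635724-4636047, signal 15.9, 1.55 times the median, rank 2887, q = 0.310). Its summit fell in the exon of a non-coding RNA gene, C46C11.5, 1235 bp upstream of hosl-1, and the region also overlapped the end of slcr-46.1. The intronic region of replicate 1 had 1.02 times the median in the pooled list.

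The gene of the receptor itself, nhr-76 (WBGene00015497, chrIV:627537-633963, plus strand), had the highest pooled signal of the 10 genes. That region, chrIV:631840-632163, had a signal of 18.8, 1.82 times the median, rank 1406 and q = 0.145, and 8.04% of all genes had one at least as strong. Its summit lay in a coding exon 4465 bp downstream of the 5' end. Replicate 1 had its strongest region at the same site (chrIV:631852-632195, signal 15.2, 2.33 times the median, rank 448, q = 0.0257). Replicate 2 listed no region over that site. The strongest region of replicate 2 lay 3959 bp nearer the 5' end, at chrIV:627910-628219, with a signal of 9.89, 1.63 times the median, rank 2828 and q = 0.0872. That place, 528 bp inside the gene, was also listed in replicate 1, at 1.44 times the median, with 154 bp shared. It had 0.827 times the median in the pooled list. The remaining pooled regions at nhr-76 were between 0.944 and 0.988 times the median, 1 of them 1019 bp upstream of the gene. The nearest peak was 20996 bp from the gene, and the nearest 5' end to that peak was that of rpl-15. The transgene of this strain also carries nhr-76 sequence, to an extent that the labels do not give. Signal from transgene copies and signal from the native gene cannot be told apart here, so the rank of nhr-76 is open to both.

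**Figure D2:**
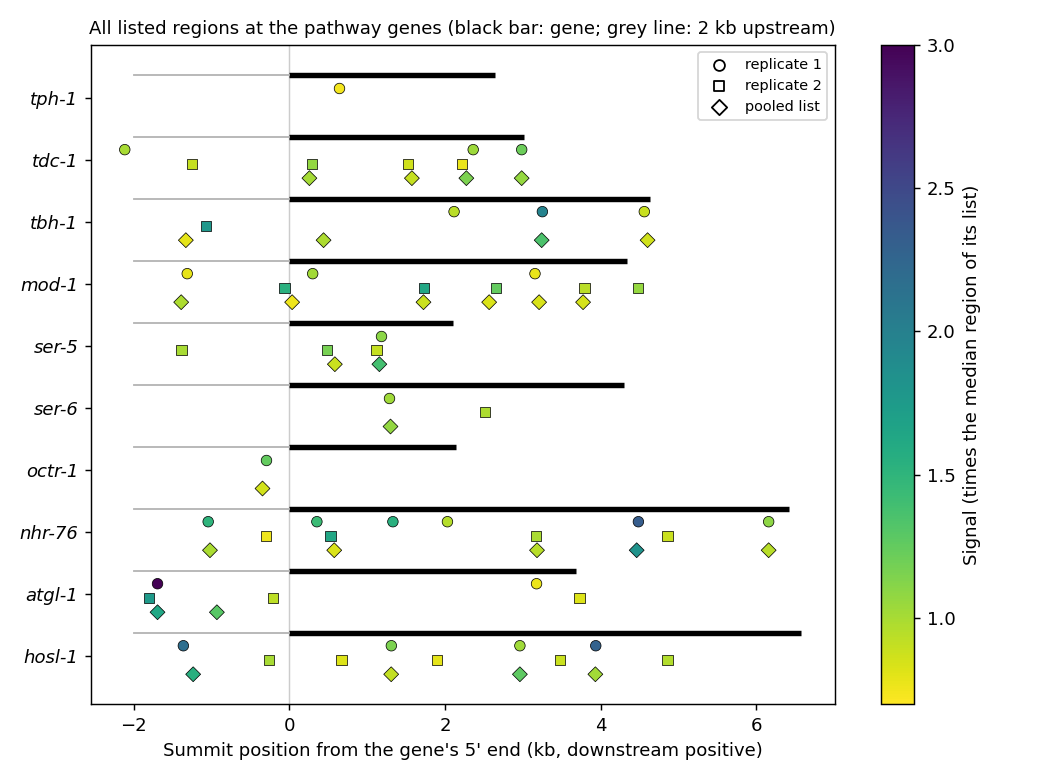
Summits of all listed regions at the 10 genes, by distance in kb from the 5' end of the gene, for replicate 1 (circles), replicate 2 (squares) and the pooled list (diamonds), coloured by signal as a multiple of the median region of the list. The black bar is the gene and the grey line its 2 kb upstream; the darkest symbol is atgl-1 in replicate 1, 1693 bp upstream, with the strongest region of replicate 2 beside it.

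Of the genes that make the transmitters, tph-1 (WBGene00006600, chrII:7549335-7551983, plus strand), the tryptophan hydroxylase of serotonin synthesis, had the lowest values. No pooled region and no region of replicate 2 were listed there. Replicate 1 held 1 region in a coding exon, with a signal of 4.84, 0.745 times the median and rank 28295, near the lowest listed value of 0.720. The tyramine beta-hydroxylase gene tbh-1 (WBGene00006541, chrX:15500256-15504895, minus strand), which makes octopamine from tyramine, was the highest of the synthesis genes. Replicate 1 reached 1.97 times the median there (chrX:15501470-15501813, signal 12.8, rank 1017, q = 0.0595), in an intron 3253 bp downstream of the 5' end. Replicate 2 reached 1.77 times (chrX:15505806-15506115, signal 10.8, rank 2012, q = 0.0505), but 1066 bp upstream. The levels were close, with a mean of 1.87 ± 0.139 times (SD, n = 2), yet the summits were 4319 bp apart and no region of one library overlapped one of the other. The pooled list followed the intronic place, at 1.35 times the median and rank 5098. A pooled region that shared 54 bp with the upstream region of replicate 2 had 0.790 times. For the intronic summits of replicate 1 and the pooled list, the nearest 5' end was that of H13N06.7. That protein-coding gene overlaps tbh-1 on the other strand. The upstream summit of replicate 2 was nearest to the 5' end of tbh-1, but its region also overlapped the gene zipt-7.2. Neither place can therefore be assigned to tbh-1 alone.

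The tyrosine decarboxylase gene tdc-1 (WBGene00006562, chrII:8270597-8273615, plus strand), which makes the tyramine that tbh-1 uses, stayed near the median of each list. Its strongest region was 1.22 times the median in replicate 1 (signal 7.93, rank 8372), 1.08 times in replicate 2 (signal 6.53, rank 12137) and 1.15 times in the pooled list (signal 11.9, rank 9532). The libraries' strongest regions were 2692 bp apart. The pooled one, in a coding exon 2276 bp downstream of the 5' end, was overlapped in both libraries, at 1.03 times the median in replicate 1 and 0.772 times in replicate 2. All 4 pooled regions overlapped the gene body, with 3 summits in coding exons and 1 at the 3' end, where the gene overlaps gei-14. About 39.0% of all genes had a pooled region at least as strong as that of tdc-1.

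Among the receptors, mod-1 (WBGene00003386, chrV:8909704-8914040, minus strand), a serotonin-gated chloride channel, held the most pooled regions of the 10 genes, 6, but none above the median of the list. The strongest had a signal of 10.2, 0.987 times the median, rank 15600, 1389 bp upstream. Replicate 2 was higher at mod-1 than replicate 1, whereas replicate 1 was the higher at both lipase genes and nhr-76. Its strongest region was intronic (chrV:8912154-8912463, signal 9.91, 1.63 times the median, rank 2817, q = 0.0857). The second was 62 bp upstream of the 5' end (chrV:8913947-8914256, 1.54 times, rank 3608, q = 0.121). Replicate 1 reached 1.02 times (signal 6.63, rank 14285), and none of its 3 regions overlapped one of replicate 2.

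The serotonin receptor gene ser-5 (WBGene00008890, chrI:8384931-8387039, plus strand) lies within a gene on the other strand, T19A6.1. Its strongest pooled region was in a coding exon 1158 bp downstream of the 5' end, with a signal of 14.3, 1.39 times the median, rank 4643 and q = 0.433. Both libraries listed a region over it, at 1.10 times the median in replicate 1 and 0.905 times in replicate 2. The strongest region of replicate 2 lay 688 bp from that of replicate 1, at 1.17 times (signal 7.11, rank 9526). The octopamine receptor gene ser-6 (WBGene00021897, chrIV:2960098-2964401, plus strand) had 1 region in each list. Its signals were 6.71 in replicate 1, 1.03 times the median, 5.99 in replicate 2, 0.986 times, and 11.1 in the pooled list, 1.08 times. The regions of the libraries were 1235 bp apart and did not overlap. The other octopamine receptor gene, octr-1 (WBGene00006411, chrX:5609110-5611255, minus strand), was listed 299 bp upstream in replicate 1 (chrX:5611382-5611725, signal 8.15, 1.25 times, rank 7599). It was not listed in replicate 2, and the pooled region at the same place had 0.861 times the median.

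Set in order of the pooled signal, the genes ran from nhr-76 over atgl-1, hosl-1, ser-5, tbh-1, tdc-1, ser-6 and mod-1 to octr-1, with tph-1 unlisted. The order was not that of the libraries. Replicate 1 ran from atgl-1 over nhr-76, hosl-1 and tbh-1 to tph-1, and replicate 2 from tbh-1 over atgl-1, mod-1 and nhr-76 down to ser-6, with tph-1 and octr-1 unlisted. By the mean over both libraries the order was atgl-1 (2.37 ± 0.875 times the median), nhr-76 (1.98 ± 0.495), tbh-1 (1.87 ± 0.139), hosl-1 (1.64 ± 0.907), mod-1 (1.33 ± 0.434), tdc-1 (1.15 ± 0.101), ser-5 (1.14 ± 0.0488) and ser-6 (1.01 ± 0.0316; SD, n = 2 each). Neighbours in this order differed by less than the larger SD of the pair, with the exception of ser-5 above ser-6. Each mean takes the strongest region of each library wherever it lay at the gene. Those 2 regions overlapped at atgl-1 only, and at the other genes their summits were 688 to 4319 bp apart. A small SD there is therefore a likeness in level, not a site found again. The median over the listed pathway genes was 1.35 times in the pooled list, against 1.16 times over all listed genes. In replicate 1 it was 1.24 against 1.18 times, and in replicate 2 1.40 against 1.18 times. The strongest region is a maximum over a window, so windows with more regions have more chances of a high value. The pathway genes held a median of 3 pooled regions, against 1 over all genes. The part of this in the difference was not tested.

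**Figure D3:**
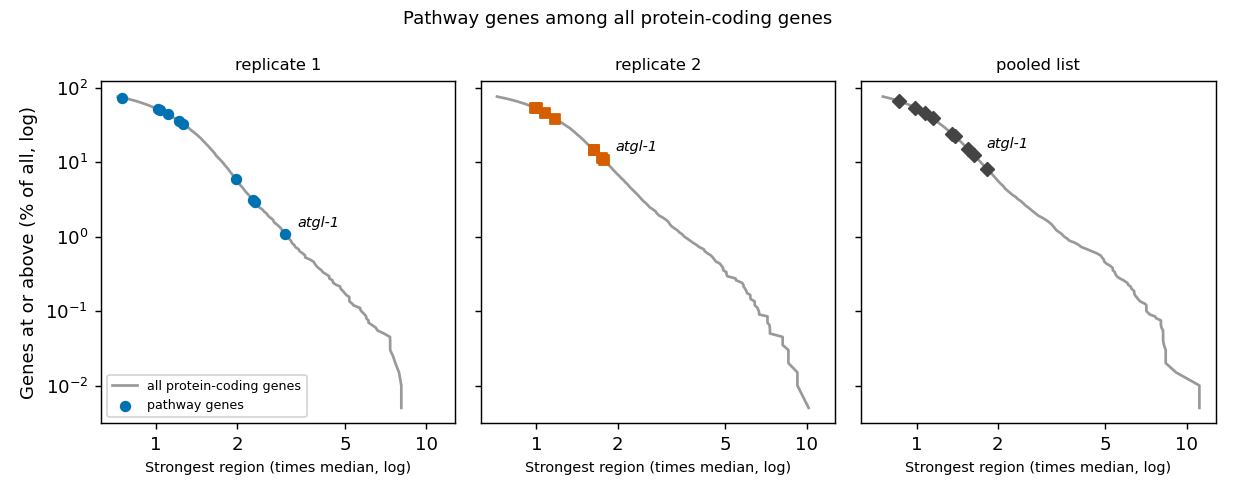
Share of all 19973 protein-coding genes whose strongest region is at or above a given signal (line), and the listed pathway genes (points), for replicate 1, replicate 2 and the pooled list; both axes are logarithmic. Points lie on the curves because the genes are among those counted; atgl-1 in replicate 1, at 1.08% of genes, lies lowest, and the long lower right of each curve holds no pathway gene.

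The pathway genes held 29 pooled regions, 25 of replicate 1 and 26 of replicate 2. Per kb of window that was 0.484 regions in the pooled list, against 0.337 over the windows of all protein-coding genes. In replicate 1 it was 0.417 against 0.336, and in replicate 2 0.434 against 0.339 regions per kb. Above the median of their list were 12 of the 29 pooled regions, 17 of the 25 of replicate 1 and 10 of the 26 of replicate 2. Over all regions of a list, as many lie above its median as below it. At the pathway genes more lay below it in the pooled list and in replicate 2, and more above it in replicate 1. Of the 29 pooled summits, 11 fell in coding exons, 9 in introns, 4 in intergenic sequence, 3 in 3' UTRs, 1 in a 5' UTR and 1 in a non-coding exon. Upstream of the 5' end lay 7. No such shares over all pooled regions are given here, so these counts describe the 29 summits only. The median GC of the 29 regions was 38.9%, against 37.4% over all pooled regions.

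The libraries shared few of these places. Of the 25 regions of replicate 1, 4 overlapped a region of replicate 2, 1 each at tdc-1, ser-5, nhr-76 and atgl-1, where 30.1% of all regions of replicate 1 did. The strongest pooled region was overlapped in replicate 1 at 9 of 9 listed genes (all genes 65.3%) and in replicate 2 at 3 of 9 (all genes 64.8%). It was overlapped in both at 3 of 9, tdc-1, ser-5 and atgl-1 (all genes 37.7%), a count near that background. The pooled list was called on the reads of both libraries, so its overlap with either library is not an independent finding.

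A wider list of 33 genes around the pathway was described the same way. It covers serotonin synthesis, transport and breakdown, the other serotonin, octopamine and tyramine receptors, a neuropeptide relay to the intestine, and fat use there. Its windows were also long, with a median of 6.365 kb against 4.03 kb for all genes, which bears on every count below. Over its listed genes, the median strongest region was 1.185 times the median in the pooled list. In replicate 1 it was 1.33 times and in replicate 2 1.234 times. None of the 33 had a peak (all genes 1.71%), 0 had a pooled region with q at or below 0.05 (all genes 4.37%), and 30 had a listed pooled region (all genes 76.8%). In replicate 1, 0 of 33 had a region with such a q (all genes 4.85%). In replicate 2 it was 6 of 33 (all genes 10.9%), 3 of 7 genes of serotonin synthesis, transport and breakdown, 1 of 4 of the relay and 2 of 13 of fat use. Of the 9 further receptors, 9 were listed in the pooled list (all genes 76.8%) and 0 had such a q in replicate 1 or in replicate 2 (all genes 4.85% and 10.9%).

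The highest pooled signal of the wider list was at kin-1, the catalytic subunit of protein kinase A, which is known to act on lipases of fat stores in mammals. It was 22.3, 2.16 times the median and rank 670, with a q just above 0.05. The strongest region of kin-1 had 2.01 times the median in replicate 1 and 3.05 times in replicate 2. Its window was 40.5 kb, the longest of all 43 genes, and held 20 pooled regions. Next came egl-3, a proprotein convertase that processes neuropeptides, with 20.7 (2.02 times the median, rank 908). It had 1.65 times in replicate 1 and 2.02 times in replicate 2. The nuclear receptor gene nhr-49, a regulator of fat oxidation, had 18.8 (1.83 times, rank 1400), with 1.55 and 1.88 times in replicates 1 and 2. A further 3 genes had a q at or below 0.05 in replicate 2 and were named after their values were seen. They were cat-4, which makes the cofactor of tph-1, at 1.87 times the median, bas-1, the decarboxylase of serotonin synthesis, at 1.87 times, and mod-5, the serotonin transporter, at 1.89 times. In replicate 1 these 3 had 1.11, 1.06 and 1.06 times. No gene of the wider list had such a q in both libraries (0 of 33, all genes 2.48%), a count near that background.

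**Figure D4:**
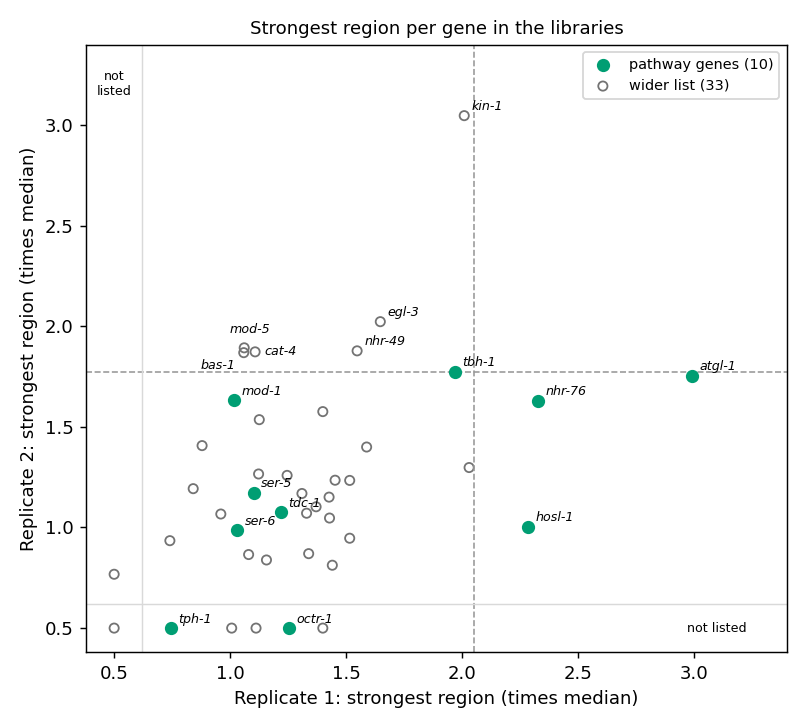
Strongest region per gene in replicate 1 (horizontal) and replicate 2 (vertical), as multiples of the median region, for the 10 pathway genes (filled) and the 33 genes of the wider list (open). Dashed lines are the weakest regions with q at or below 0.05, at 2.05 times in replicate 1 and 1.77 times in replicate 2, and genes not listed sit in the margin; no gene lies beyond both lines, with atgl-1 just below the horizontal one, kin-1 just left of the vertical one and tbh-1 short of both.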

How the data were processed

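Region lists (narrowPeak columns) from 2 ChIP-seq libraries of whole L1 larvae were used. By the deposited listings, the authors derived each replicate's list from its own alignments against a control file, which was not used here. Both sets of alignments gave the pooled list, and all 3 lists together gave the thresholded peaks, by the irreproducible discovery rate. The peak caller, aligner, versions and read numbers are not given in the sources used here. The deposited signal (column 7) is the caller's value. The deposited −log10 q-value (column 9) was turned into q. Both columns were identified by the column order of the format.

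Genes were taken from Ensembl release 115 on WBcel235, whose chromosome lengths hold every ce11 region. A gene's window was its body plus 2 kb upstream. Counts, signals, ranks and multiples of the list's median were computed with pandas 2.3.3 under Python 3.11.15, and the overlap step was tested on simulated data. Background shares are over all 19973 protein-coding genes. No test was run, since 1 group was profiled. The labels number the libraries as biological replicates 1 and 2 but do not say whether they came from separate cultures, so how much of their spread is biological is not known. The genes named are the 10 pathway genes, the 3 genes of the wider list with the highest pooled signal, and any of that list with a peak or a pooled q at or below 0.05. The genes cat-4, bas-1 and mod-5 fall outside this rule and were named for their q in replicate 2, after their values were seen. Some neighbouring genes are also named, for their place beside a region or a peak. The pathway genes and the wider list were chosen with earlier results of these data known. Sequences were read around summits only. Alternatives were other windows, the summit in place of overlap, a stricter q, a larger overlap between lists, merged rows, each library alone and the ce10 lists.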

Additional observations from a re-analysis of the deposited data

How the results depend on the processing

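The counts of pathway genes with a peak and with a pooled q at or below 0.05 were 0 with 1 kb, 2 kb or 5 kb upstream, with the gene body alone and by the summit. A listed pooled region was at 7 genes with the gene body alone and at 9 under the other windows. Shares over all genes are given for the 2 kb window only, so counts under other windows have no background here. The strongest pooled region was found in both libraries at 3 genes, but at 2 with 1 kb upstream or the gene body alone, both of which leave out the atgl-1 site, and at 4 with 5 kb. A q of 0.01 and the ce10 peaks also gave 0 genes. Merging overlapping pooled regions left the count of 9 listed genes and the regions per kb as they were, and requiring an overlap of at least 0.5 of the pooled region left the count found in both libraries at 3. Of the strongest regions, all 9 pooled and 10 of replicate 1 had a ce10 counterpart within 0.1% of signal, but 3 of 8 of replicate 2 did, whose ce10 regions have another width.

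Regions per kb at the pathway genes were 0.484 as reported, 0.501 with 1 kb upstream, 0.456 with 5 kb and 0.552 with the gene body alone. With either library alone they were 0.417 to 0.434. For the windows other than 2 kb, no value over all genes is given. The number of genes with q at or below 0.05 ran from 0 without replicate 1 to 3 without replicate 2, the number with a listed region from 8 to 10, and the median strongest region from 1.24 to 1.40 times the list's median. The cause was not tested. Unknown read depth limits every value here, and with 2 libraries the SDs are themselves uncertain. No paired analysis was possible because there is 1 group.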
